A study of Mus musculus with 6 samples.

Results

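The 41 genes described here encode cell guidance proteins. They comprise 13 Eph receptors, 8 ephrins and 20 genes of other guidance systems, which are class 3 semaphorins, neuropilins, class A plexins, Slits, Robo receptors, netrin and netrin receptors. They were taken by gene name from a list written for this comparison with earlier results of these data known. Shares of members set beside those of all genes are therefore descriptions only. Of the 41 genes, 39 were among the 19354 genes tested. Mouse embryos without Paraxis (Paraxis-/-) were compared with wild-type (WT) embryos. Paraxis is the product of Tcf15, a DNA-binding protein that newly formed somites need to become epithelial. Both genotypes were C57BL/6J and were dissected at embryonic day 9.5. The tissue was the anterior presomitic mesoderm with somites I to IV. Each pool combined tissue of 5 embryos, with 3 pools for each genotype, and each Paraxis-/- pool was hybridised against 1 WT pool on 2 dye-swapped arrays. Pair A joined both pools labelled A, pair B joined Paraxis-/- pool C with WT pool B, and pair C joined Paraxis-/- pool B with WT pool C. The labels do not describe the Paraxis allele. A pool averages its embryos, so spread between embryos is not seen, and in such bulk tissue fewer cells of a type and less RNA per cell cannot be told apart.

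Ephrins and Eph receptors are both bound to the cell surface and signal in both directions where cells touch, so neighbouring populations can repel each other, stay apart or change shape at a border. At the forming somite border, work in zebrafish and chick placed EphA4 on the cells behind the cleft and ephrin-B ligands on the cells in front of it, and this contact helps border cells become epithelial. Secreted semaphorins, Slits and netrins act on neuropilin and plexin, Robo, and DCC or UNC5 receptors, and are best known for steering axons, neural crest cells and vessels along and between somites.

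The targeted gene came first. Tcf15 had log2 ratios (Paraxis-/- over WT) of -5.23, -5.48 and -5.52 in pairs A, B and C, with a mean of -5.41 (limma adjusted p = 0.000536, n = 3 pairs). All 13 paraxial mesoderm and somite markers were well above background in all 12 measurements. Of the markers of neighbouring tissues, 11 of 12 for neural tube, 8 of 8 for neural crest, 10 of 10 for endothelium and 8 of 9 for surface ectoderm were also well above background in all 12. Of 43379 gene spots on an array, 28683 to 31795 were well above background in the Paraxis-/- channel and 27080 to 30982 in the WT channel. Slide 1 held pair A, and slide 2 held the other pairs. With 3 pairs an exact sign-flip test of a gene cannot give a p below 0.25, and the number of arrays limits the precision of every ratio below.

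The arrays read these genes with 60-base probes. The probes of 4 members are printed because the results below turn on them, with the first 30 bases of each in 5′ to 3′ direction and lower case. Coordinates are those of mm9 in the files, which do not annotate exons or untranslated regions. The Ntn1 probes lie on the minus strand at chr11:68023811-68023870 and chr11:68040053-68040112. Those of Sema3f lie on the minus strand at chr9:107584788-107584847 and chr9:107584200-107584259. The single Efnb1 probe lies on the plus strand at chrX:96343505-96343564. The Sema3e probes lie on the plus strand at chr5:14256431-14256490 and chr5:14254023-14254082. Probe 1 is the brighter and the one used for the gene.
Ntn1 probe 1: tattaacagagttgtgatatgtaggtcttt
Ntn1 probe 2: actgtgattcctattgcaaggcctccaaag
Sema3f probe 1: cagggaggcgccaggagcacttaggcctcc
Sema3f probe 2: aggtgcctagtcaaggccaacctttcccag
Efnb1 probe 1: ttttggaccctcatgagacaatgctgttcc
Sema3e probe 1: tctgactagatactggagtgtctttgtctc
Sema3e probe 2: atgatttttatgaggcttttcagttcggta

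No guidance gene passed the threshold. Of the 39 tested members, 0 had an adjusted p under 0.05 by limma with Benjamini-Hochberg adjustment over all genes, where 0.0207% of all genes tested did (4 genes). The lowest adjusted p of a member was 0.573. At an unadjusted p under 0.05 there were 3 members (7.69%), against 5.07% of all genes, with 1 higher (2.34% of all genes) and 2 lower (2.73%) in Paraxis-/- tissue. These were Ntn1 and Sema3f, both lower, and Efnb1, higher. The ratio had 1 sign in all 3 pairs for 15 members (38.5%), against 25.5% of all genes, with 7 higher (13.4% of all genes) and 8 lower (12.1%). The mean was above 0 for 16 of the 39 members, against 51.6% of all genes. A mean difference of at least 1.5-fold was reached by 2 members (5.13%), Epha7 and Sema3e, against 0.77% of all genes. In both, pair A alone went past it. With Agilent processed signals Ntn1 (-0.854) and Sema3d (0.646) also went past 1.5-fold, where the reported fit gave -0.547 and 0.259. The 95% interval of the ratio lay within 1.5-fold in either direction for 29 members (74.4%), against 91.8% of all genes. For the other 10 the interval reached past 1.5-fold. These interval counts come from the reported fit and were not repeated with other signal processing. With array ratios fitted with the pair as a block, 66 genes and 0 members passed. An unadjusted p under 0.05 was then reached by 8 of 39 members, against 1464 of 19354 genes (7.56%). Leaving out pair A gave 7 of 39 members, against 5.82% of all genes, and leaving out pair B gave 6 of 39, against 3.78%.

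**Figure D1:**
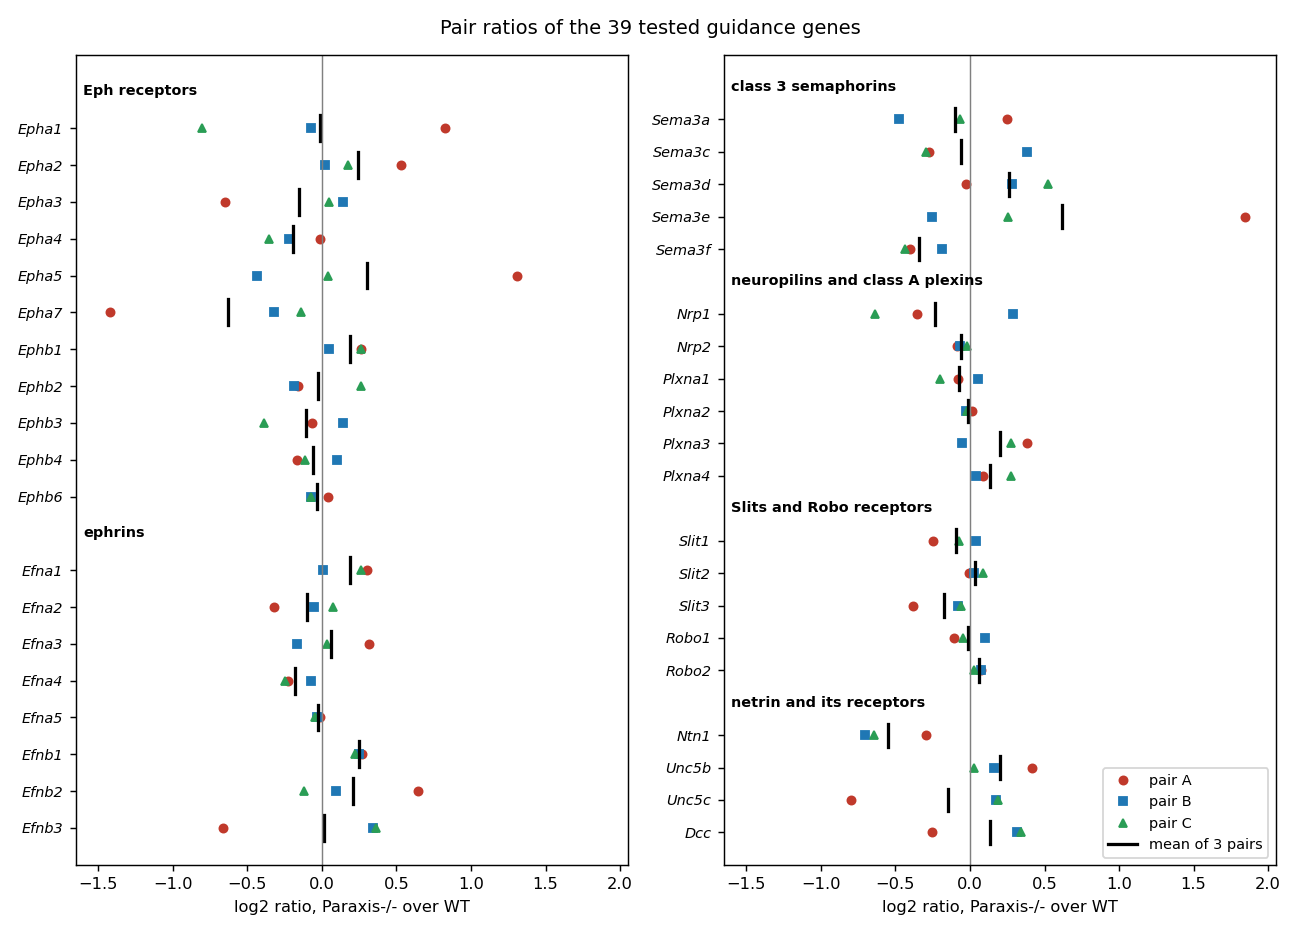
Log2 ratio (Paraxis-/- over WT) of each of the 39 tested guidance genes in pair A, pair B and pair C, with the mean of the 3 pairs as a vertical bar, grouped by family. Points of most genes lie on both sides of 0. Ntn1 and Sema3f lie below 0 and Efnb1 above 0 in all 3 pairs, and Sema3e, Epha5 and Epha7 have a pair A point far from the other two.

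The receptor and ligand best known from somite borders, EphA4 and ephrin-B2, were both measured well above background in every pool. The Epha4 probe gave a log2 intensity of 11.89, 12.17 and 12.09 in the Paraxis-/- pools of pairs A, B and C, against 11.90, 12.39 and 12.44 in the WT pools. The Paraxis-/- pool was lower in pairs B and C and on average level with its partner in pair A, and the genotypes overlapped. The dye-swapped arrays of pair A differed in sign, at -0.29 with WT in Cy5 and 0.27 with Paraxis-/- in Cy5. The ratio was below 0 on 5 of 6 arrays. The mean log2 ratio was -0.20 (SE 0.09), and its 95% interval of 0.743 to 1.03-fold reached past equality (limma unadjusted p = 0.0839, adjusted p = 0.951, 3 pairs). A second Epha4 probe gave a mean of -0.17, and the first averaged -0.29 without pair A (limma unadjusted p = 0.0259, adjusted p = 0.811). For Efnb2, which encodes ephrin-B2, log2 intensity was 12.55, 12.06 and 12.11 in Paraxis-/- pools and 11.90, 11.97 and 12.23 in WT pools. The Paraxis-/- pool of pair A stood above all others, the pair C ratio was below 0, and the genotypes overlapped. The mean ratio was 0.21 (SE 0.16, limma adjusted p = 0.953), with an interval of 0.868 to 1.54-fold. The second Efnb2 probe had ratios of 0.14, 0.01 and -0.47 in pairs A, B and C and a mean of -0.11. The first had 0.65, 0.09 and -0.12 in the same pairs. The 2 probes thus shared a sign in each pair, and only their means differed in sign. Without pair A the mean of the probe used was -0.01.
Epha4 probe 1: ccaataaatatttattgcattctgacaggg
Epha4 probe 2: tgcctccgatacacaatgctaaagtgacat
Efnb2 probe 1: gtcatcggttggctacgttttggttctatg
Efnb2 probe 2: ttagagtccttgagatggaagtaagttatg
The Epha4 probes lie on the minus strand at chr1:77364688-77364747 and chr1:77365747-77365806 of mm9. The Efnb2 probes lie on the minus strand at chr8:8618177-8618236 and chr8:8619222-8619281 of mm9. They are shown because the means of the 2 Efnb2 probes differ in sign.

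**Figure D2:**
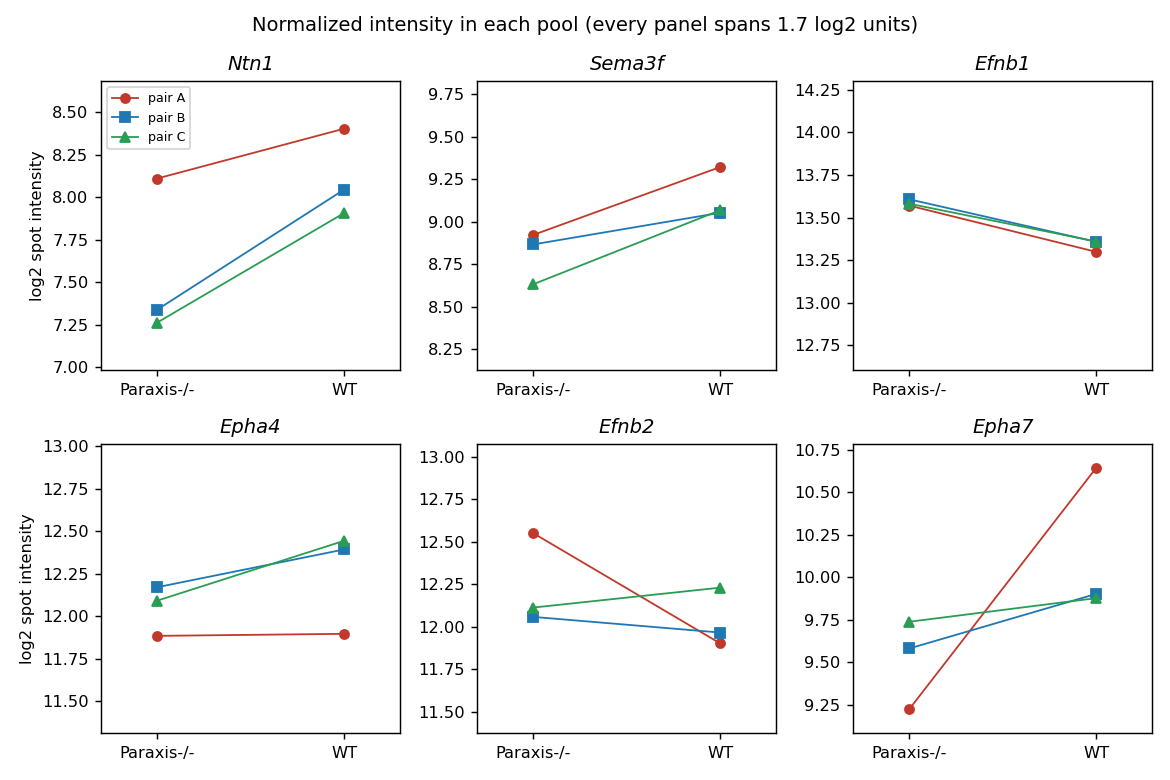
Normalized log2 spot intensity of 6 genes in each Paraxis-/- pool (left) and its paired WT pool (right), with a line joining the pools of a pair. Efnb1 Paraxis-/- pools sit at 13.57 to 13.61, above the WT pools at 13.30 to 13.36, while the Epha4 and Efnb2 pools of the genotypes overlap.

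Among the ephrins, Efnb1 had an unadjusted p under 0.05. It encodes ephrin-B1, a transmembrane ligand of EphB receptors. Log2 intensity was 13.57, 13.61 and 13.58 in the Paraxis-/- pools of pairs A, B and C and 13.30, 13.36 and 13.36 in the WT pools. Every Paraxis-/- pool was above every WT pool, and all 6 arrays had a ratio above 0. The mean log2 ratio was 0.25 (SE 0.06), or 1.19-fold higher with a 95% interval of 1.06 to 1.33-fold (limma unadjusted p = 0.0128, adjusted p = 0.856, 3 pairs). Without pair B the unadjusted p was 0.0714. Efnb1 has 1 probe, so no second reading of it was available. Pools did not overlap in that direction for 2 members, Efnb1 and Ephb1 (5.13%, against 3.13% of all genes), and in the lower direction for 2 others, Sema3f and Epha7 (5.13%, against 2.89%).

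The remaining ephrins showed smaller or inconstant differences. Efna4, a lipid-anchored ephrin-A ligand, had log2 intensities of 10.89, 10.49 and 10.31 in Paraxis-/- pools and 11.12, 10.57 and 10.56 in WT pools. All 6 arrays were below 0, though the pools of the genotypes overlapped, and the mean ratio was -0.18 (limma unadjusted p = 0.0548). Efna1 averaged 0.19, Efna2 -0.10, Efna3 0.06 and Efna5 -0.03, and the pair averages of Efna5 varied least, between -0.04 and -0.01. Its dye-swapped arrays differed in sign in pair B (0.10 with WT in Cy5, -0.16 with Paraxis-/- in Cy5) and pair C (0.13 and -0.22). Efnb3 encodes ephrin-B3, a ligand known from the midline of the neural tube, and was singled out after its values were seen. Its log2 intensity was 10.76, 10.79 and 10.81 in Paraxis-/- pools, against 11.42, 10.44 and 10.45 in WT pools. The WT pool of pair A was the highest and the other WT pools the lowest of the 6, which gave ratios of -0.66, 0.34 and 0.36 in pairs A, B and C. The median ratio was 0.21 for the 3 ephrin-B genes and -0.03 for the 5 ephrin-A genes. This difference between groups of genes was not tested.

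The Eph receptors, which are receptor tyrosine kinases, had a median ratio of -0.04 over 11 tested genes, 3 above 0 and 8 below. Epha6 and Epha8 did not reach well above background in a single measurement out of 12, so they were not tested. Epha7 had log2 intensities of 9.22, 9.58 and 9.74 in Paraxis-/- pools and 10.64, 9.90 and 9.88 in WT pools. All Paraxis-/- pools were below all WT pools and all 6 arrays were below 0, but the size differed by pair. The ratios were -1.42, -0.32 and -0.14 in pairs A, B and C, with a mean of -0.63 (SE 0.26, limma unadjusted p = 0.0647, adjusted p = 0.951), and -0.23 without pair A. The second Epha7 probe averaged -0.28. Ephb1 had 8.37, 8.25 and 8.41 in Paraxis-/- pools against 8.11, 8.20 and 8.15 in WT pools. The pools did not overlap, with a mean ratio of 0.19 (limma unadjusted p = 0.0612).

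Epha1 and Epha5 were singled out after their values were seen, because their pairs went in opposite directions. Epha1, a receptor best known from epithelia, had log2 intensities of 10.41, 9.65 and 8.74 in Paraxis-/- pools against 9.59, 9.72 and 9.54 in WT pools. WT pools lay close together and Paraxis-/- pools were spread on both sides of them, with ratios of 0.83, -0.07 and -0.80. For Epha5, a receptor known from neurons, the values were 8.55, 7.54 and 7.90 in Paraxis-/- pools and 7.24, 7.98 and 7.86 in WT pools. Only pair A had a large ratio, 1.31, and the others had -0.44 and 0.04. Of the other receptors, Epha2 averaged 0.24, Epha3 -0.15, Ephb2 -0.03, Ephb3 -0.10, Ephb4, the venous receptor for ephrin-B2, -0.06, and the kinase-inactive Ephb6 -0.04. The 95% interval stayed within 1.5-fold for all 5 tested EphB genes and for 2 of 6 tested EphA genes (33.3%), against 91.8% of all genes.

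Basic helix-loop-helix proteins such as Paraxis are known to bind E-box motifs, whose core is CANNTG. The 250 bases before the RefSeq start (GRCm38.p6) of the border genes and of Efnb1 are printed in 5′ to 3′ direction of the gene. Efnb1 is on the plus strand at chrX:99135811-99136060, Epha4 on the minus strand at chr1:77515089-77515338 and Efnb2 on the minus strand at chr8:8661243-8661492. Capitals mark each match to CANNTG, which reads the same on both strands.
Efnb1 promoter: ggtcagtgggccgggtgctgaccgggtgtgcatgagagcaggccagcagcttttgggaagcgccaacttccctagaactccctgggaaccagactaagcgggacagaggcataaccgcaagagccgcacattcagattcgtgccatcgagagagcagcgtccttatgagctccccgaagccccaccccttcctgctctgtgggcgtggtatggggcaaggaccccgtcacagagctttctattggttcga
Epha4 promoter: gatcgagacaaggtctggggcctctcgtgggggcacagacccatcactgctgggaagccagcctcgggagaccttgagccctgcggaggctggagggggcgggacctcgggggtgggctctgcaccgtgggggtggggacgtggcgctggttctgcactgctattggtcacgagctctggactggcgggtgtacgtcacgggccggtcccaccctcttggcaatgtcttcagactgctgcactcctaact
Efnb2 promoter: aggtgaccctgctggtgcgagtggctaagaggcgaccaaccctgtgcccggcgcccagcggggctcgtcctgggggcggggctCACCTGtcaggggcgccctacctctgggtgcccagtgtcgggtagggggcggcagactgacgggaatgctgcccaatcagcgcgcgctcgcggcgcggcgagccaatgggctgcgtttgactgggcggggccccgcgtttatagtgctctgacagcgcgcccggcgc
Efnb2 had 1 match, 167 bases before the start, and the other promoters had 0 in this window. Promoter entries were found for 34 of the 41 members (39 entries), and 17 entries (43.6%) held the motif, against 66.2% of all 32851 entries. A match is a run of letters in this window and was not tested for binding.

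Of the class 3 semaphorins, which are secreted, Sema3f was lower in all 3 pairs. It binds neuropilin-2 and in mouse keeps trunk neural crest cells out of the posterior part of each somite. Log2 intensity was 8.92, 8.87 and 8.63 in the Paraxis-/- pools of pairs A, B and C, against 9.32, 9.05 and 9.07 in the WT pools. All Paraxis-/- pools lay below all WT pools, and all 6 arrays were below 0. The mean log2 ratio was -0.34 (SE 0.08), with a 95% interval of 0.683 to 0.914-fold (limma unadjusted p = 0.00899, adjusted p = 0.795, 3 pairs). The second probe shown above averaged -0.60, with ratios of -0.78, -0.17 and -0.84. The 13 paraxial mesoderm and somite markers include Tcf15, the targeted gene, whose loss was set by the design. With Tcf15 counted, 8 were lower at an unadjusted p under 0.05 by limma (61.5%, against 2.73% of all genes). At an adjusted p under 0.05 there were 2, Tcf15 and Pax1 (0.0207% of all genes). The mean was above 0 for 3 of the 13, Meox1 (0.24), Dll1 (0.11) and Tbx6 (0.69). Tbx6 had 2.43, -0.59 and 0.22 in pairs A, B and C. The list medians were -0.63, -0.59 and -0.39 over the same pairs. The part of these markers in the Sema3f difference was not tested.

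Sema3e signals through plexin-D1 and in mouse keeps vessels out of somites. It was named after its values were seen. Log2 intensity was 10.05, 9.43 and 9.99 in Paraxis-/- pools and 8.21, 9.68 and 9.73 in WT pools. The WT pool of pair A stood far below the other 5 pools. The ratios were 1.85, -0.25 and 0.26, the second probe gave 1.81, -0.26 and 0.11, and the mean was 0.62 (SE 0.41, limma adjusted p = 0.953) but 0.002 without pair A. Sema3d had 6.95, 7.10 and 7.11 in Paraxis-/- pools and 6.97, 6.82 and 6.59 in WT pools, with a mean of 0.26 and a ratio of -0.03 in pair A. Sema3a, a ligand of neuropilin-1, averaged -0.10, and Sema3c, known from the cardiac outflow tract, averaged -0.06.

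Neuropilins bind class 3 semaphorins and plexins pass on the signal. Nrp2, the Sema3f receptor, had a ratio between -0.09 and -0.02 in every pair, with a mean of -0.06 and an interval of 0.855 to 1.08-fold. Plxna2 averaged -0.01 with an interval of 0.883 to 1.11-fold, although its log2 intensity was 10.52 in the Paraxis-/- pool and 10.51 in the WT pool of pair A and over 11 in the other pools. For Plxna3 the log2 intensities were 9.94, 9.65 and 9.98 in Paraxis-/- pools and 9.56, 9.71 and 9.70 in WT pools, with a mean ratio of 0.20. The Paraxis-/- pool of pair B lay among the WT pools. Its second probe averaged -0.14. Plxna4 had 7.49, 7.63 and 7.89 in Paraxis-/- pools and 7.40, 7.59 and 7.61 in WT pools, above 0 on all 6 arrays with a mean of 0.13 (limma unadjusted p = 0.150). Nrp1 varied more, at -0.36, 0.29 and -0.63, and Plxna1 averaged -0.08. The 95% interval stayed within 1.5-fold for 5 of these 6 genes (83.3%, against 91.8% of all genes), Nrp1 being the exception.

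For the Slits, which are secreted repellents, and their Robo receptors, the 95% interval was within 1.5-fold for all 5 genes, against 91.8% of all genes. Slit3 had log2 intensities of 9.57, 9.52 and 9.50 in Paraxis-/- pools and 9.95, 9.60 and 9.56 in WT pools. The Paraxis-/- pools lay close together, the WT pool of pair A was the highest, and the mean ratio was -0.17 (limma unadjusted p = 0.121). Slit1 had 7.62, 7.65 and 7.51 in Paraxis-/- pools against 7.87, 7.61 and 7.59 in WT pools, with a mean of -0.09. Slit2 averaged 0.04, Robo1 -0.02 and Robo2 0.06.

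Netrin-1, the secreted ligand encoded by Ntn1, had the smallest p of all members. Log2 intensity was 8.11, 7.34 and 7.26 in the Paraxis-/- pools of pairs A, B and C, against 8.40, 8.04 and 7.91 in the WT pools. Each Paraxis-/- pool was below its partner, though the Paraxis-/- pool of pair A was above the WT pools of the other pairs, so the genotypes overlapped. The mean log2 ratio was -0.55 (SE 0.10), or 1.46-fold lower with a 95% interval of 0.568 to 0.825-fold (limma unadjusted p = 0.00355, adjusted p = 0.573, 3 pairs). The ratio was below 0 on 5 of 6 arrays. The dye-swapped arrays of pair A differed in sign, at 0.30 with WT in Cy5 and -0.89 with Paraxis-/- in Cy5. The second probe gave -0.43, -0.55 and -0.22 over pairs A, B and C. The receptors did not share this direction in every pair. Unc5b, a repulsive receptor found on vessels, had 11.44, 11.65 and 11.67 in Paraxis-/- pools and 11.03, 11.49 and 11.64 in WT pools. All pairs were above 0, with a mean of 0.20 (limma unadjusted p = 0.0955). Unc5c, singled out after its values were seen, had ratios of -0.80, 0.17 and 0.19, and Dcc, the attractive netrin receptor, had -0.25, 0.32 and 0.35.

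The pairs differed in the size of their ratios, for members and for all genes. The median absolute log2 ratio of the members was 0.27, 0.10 and 0.19 over pairs A, B and C, where that of all genes was 0.13, 0.09 and 0.11. At least 1.5-fold was reached by 8 members in pair A (20.51%, against 4.41% of all genes), 1 in pair B (2.56%, against 1.22%) and 3 in pair C (7.69%, against 3.12%). The sign was opposite to that of both other pairs in pair A for 10 members (25.6%, against 25.1% of all genes), in pair B for 11 (28.2%, against 23.2%) and in pair C for 3 (7.69%, against 25.7%). Of the 10 members with pair A opposite, Epha3, Efnb3, Sema3d, Slit2, Unc5c and Dcc had pair A below 0 and the other pairs above 0. Epha1, Ephb6, Sema3a and Plxna2 had pair A above 0 and the other pairs below 0. Marker lists of other tissues also varied between pairs. The median ratio was -0.44, 0.19 and 0.18 in pairs A, B and C for 11 neural tube markers and -0.55, 0.19 and 0.14 for 8 neural crest markers. Levels were also summed over a list, which adds intensities of different probes, so the brightest probes weigh most. Summed log2 levels of neural tube markers were 13.85 to 14.15 in Paraxis-/- pools and 13.76 to 14.53 in WT pools. Those of neural crest markers were 12.89 to 13.78 in Paraxis-/- pools and 13.44 to 13.72 in WT pools. Surface ectoderm markers had medians of 0.67, 0.09 and 0.14 (14.90 to 15.19 in Paraxis-/- pools, 14.23 to 14.93 in WT pools), and blood markers 0.50, 0.97 and -0.09 (17.30 to 17.90 in Paraxis-/- pools, 16.54 to 17.31 in WT pools). Gut endoderm and notochord markers had medians of 0.49, -0.01 and 0.37, endothelial markers -0.28, 0.15 and -0.10, and lateral plate and intermediate mesoderm markers 0.06, 0.08 and 0.03. The part of these markers in the members' ratios was not tested, and slide 1 held pair A alone, so slide and pair cannot be told apart.

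**Figure D3:**
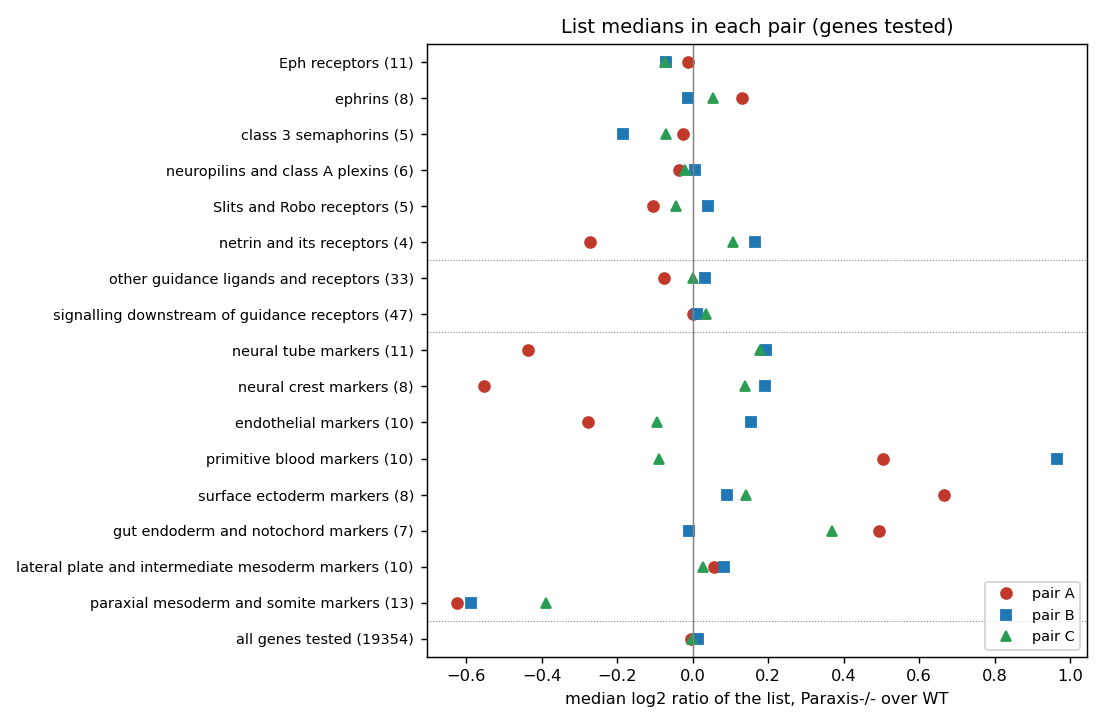
Median log2 ratio (Paraxis-/- over WT) of each gene list in pair A, pair B and pair C, with the number of genes tested in brackets. Among the guidance families the lowest median is that of the netrin genes in pair A (-0.27), and the lateral plate and intermediate mesoderm markers lie between 0.03 and 0.08. Neural tube and neural crest markers lie below 0 in pair A and above 0 in the other pairs.

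Compared by family, medians were -0.04 for Eph receptors, 0.04 for ephrins and -0.04 for the 20 other guidance genes, against 0.004 for all genes. The ephrin median was between 0.00 and 0.07 when a pair was left out and 0.09 with median centring. By role they were -0.03 for 17 ligands and -0.02 for 22 receptors. All 3 members with an unadjusted p under 0.05 were ligands (17.6% of ligands, against 5.07% of all genes). With the pair as a block the receptor genes Epha2, Epha7 and Ephb1 also had such a p by limma. A difference by role was not tested. Of 33 tested genes among 38 other guidance ligands and receptors, 0 passed the adjusted threshold by limma. An unadjusted p under 0.05 was reached by 1 (3.03%, against 5.07% of all genes). This was Flrt3 at -0.27, which encodes a cell-adhesion protein that binds UNC5 receptors. Its relative Flrt2 averaged -0.58 (limma unadjusted p = 0.0524), but -0.24 without pair A. Sema4c, a membrane-bound semaphorin, also averaged -0.58 (limma unadjusted p = 0.0977), but -0.15 without pair C. Plxnd1, the Sema3e receptor, averaged -0.37 (limma unadjusted p = 0.0967), with -0.89, 0.01 and -0.24 over pairs A, B and C and a mean of -0.12 without pair A. Of 47 genes of signalling downstream of guidance receptors, 0 passed and 7 had an unadjusted p under 0.05 (14.9%, against 5.07% of all genes), 4 higher and 3 lower. Among them were Chn1 (0.25), which relays EphA4 signals, Crmp1 (0.32), a semaphorin effector, the kinase gene Src (0.29) and Rnd2 (-0.49, and -0.30 without pair C). In the somite boundary and segment polarity list 0 of 25 tested genes passed by limma. In that list 6 genes had an unadjusted p under 0.05 (24.0%, against 5.07% of all genes), 1 higher and 5 lower. Of these Tbx18, which marks anterior somite compartments, averaged -1.02 and Uncx, which marks posterior ones, -0.78. Heyl, a Notch target, averaged -0.83 and Pax3 -0.49. Tbx18, Uncx and Pax3 are also among the 13 paraxial mesoderm and somite markers, so the lists overlap and their shares are not separate results.

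The 18 members with at least 2 kept probes gave a check within arrays. By the mean over the pairs, the probes of 13 shared a sign and those of 5 did not, namely Efna5, Efnb2, Nrp1, Plxna3 and Robo2. Ntn1 and Sema3f were among the 13, as were Sema3e and Epha7.

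**Figure D4:**
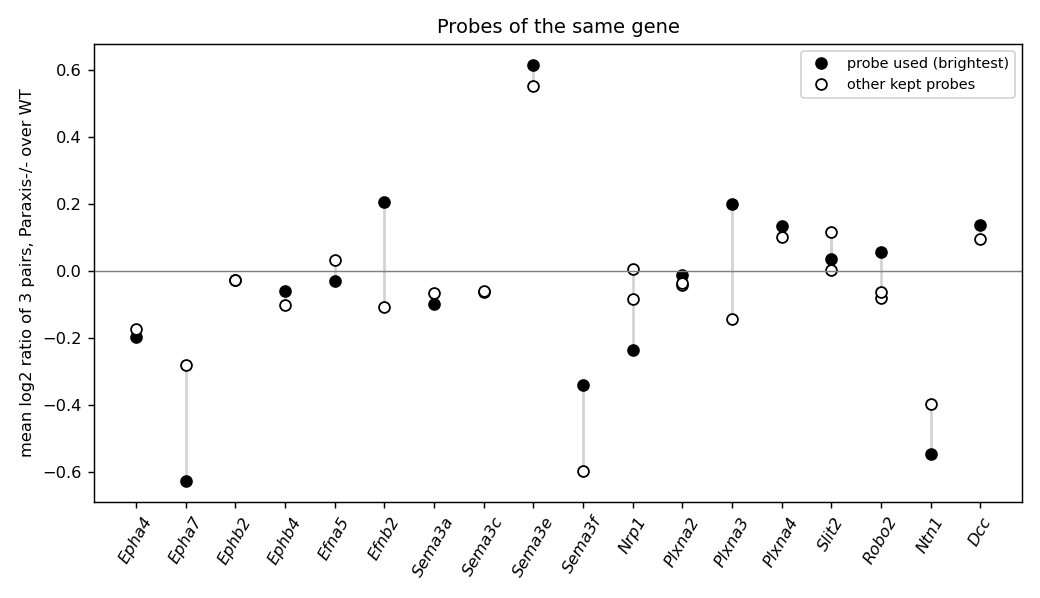
Mean log2 ratio of 3 pairs (Paraxis-/- over WT) for every kept probe of the 18 members with at least 2, with the brightest probe filled and the others open. For Efnb2 the filled probe lies at 0.21 and the open one at -0.11, while both Ntn1 probes (-0.55 and -0.40) and both Sema3f probes (-0.34 and -0.60) lie below 0.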

How the data were processed

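Agilent two-colour arrays measured RNA of 3 Paraxis-/- and 3 WT pools. The deposited spot intensity came from Agilent Feature Extraction, version 10.7.3.1 or 10.5.1.1 per the file headers and 8.5.1.1 per the submitters' processing notes. The deposited log10 ratios (Cy5 over Cy3) matched the scanner log10 ratios within 5e-11.

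Median intensities were corrected with normexp (offset 50) and loess in limma 3.58.1 (R 4.3.3). The 1639 control spots had no weight, and 570 to 776 outlier spots were dropped from each array. Ratios were turned to Paraxis-/- over WT on the log2 scale, and dye-swapped arrays averaged, giving 3 pairs. Probes well above background in at least 4 of 6 measurements of either genotype were kept (28639 of 41174), and the brightest kept probe stood for a gene. The limma functions lmFit and eBayes gave a two-sided test of each gene's pair ratios against 0. P-values were adjusted by Benjamini-Hochberg over 19354 genes (73 with fewer than 3 pairs), with a threshold of 0.05. Pool levels are log2 values after Aquantile, which allow comparison between pools for 1 probe but not between probes. The fit was tested on simulated data.

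Pairs came from the titles. The descriptions of 2 arrays name other pools. Arrays of one pair correlated with r of 0.376, 0.621 and 0.611 across genes after removing the mean of each dye orientation, and other combinations had -0.425 to -0.059. Removing that mean by itself lowers the other values.

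Symbols were updated through a RefSeq gene table of another build, used for names only (26682 probes through an accession, 5195 through a symbol, 951 through a synonym, and 8346 unmatched under the file's own name). Promoters are RefSeq entries of GRCm38.p6, and probe coordinates are mm9.

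The members and lists were chosen with earlier results of these data known. Values per pool were given for Epha4, Efnb2, members with an unadjusted p under 0.05, members with an absolute ratio of at least 0.40 and 1 sign in all pairs, and the 2 smallest p of each list. From other lists, genes were taken among the 4 smallest p, with not all of them named. Alternatives covered background correction, normalization, the deposited ratios, probe filter and choice, blocking, slide, moderation and leaving out pairs.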

Additional observations from a re-analysis of the deposited data

How the results depend on the processing

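No member passed the adjusted threshold of limma in any of 15 distinct alternatives (lowest adjusted p 0.12), counting once the fit within slide 2, which is the fit without pair A. The unadjusted p was under 0.05 for Ntn1 in 15 (log2 ratio -0.854 to -0.468), for Sema3f in 15 (-0.469 to -0.293) and for Efnb1 in 14 (0.236 to 0.35). Tcf15 ranged from -5.499 to -5.353 when leaving out a pair, and missed the threshold without pair B (-5.374, limma adjusted p = 0.0865).

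Members with an unadjusted p under 0.05 numbered 5 with an intensity trend (5.05% of all genes), 5 with no filter on dim probes (5.14%), 6 with median centring (7.34%), 8 with the pair as a replicate block (7.56%), 10 with no replicate block (9.38%), 10 with slide as a fixed term (8.58%), 7 within slide 2 (5.82%) and 4 to 7 when leaving out a pair (3.78% to 5.82%). These counts are out of 39 members, or 41 with no filter on dim probes. The percentages beside them are shares of all genes, not of members. The fit with no replicate block treated the dye-swapped arrays of a pair as independent, although they share pools. Genes past the threshold numbered 66 with the replicate block, 91 with no replicate block, 18 with scaling between arrays, 44 with slide as a fixed term, 2 within slide 2 and 0 to 2 when leaving out a pair. The 0 came without pair B, where limma gave 730 genes an unadjusted p under 0.05. The fixed slide term was chosen after seeing the data, because the planned random slide block could not be fitted on 3 pair ratios.

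The Eph receptor median was -0.087 with Agilent processed signals, -0.08 with the deposited ratios, 0.009 with median centring, -0.073 within slide 2 and -0.073 to -0.017 when leaving out a pair. The ephrin median, 0.036 in the reported fit, was 0 to 0.073 when leaving out a pair and 0.092 with median centring. Leaving out a pair gave class 3 semaphorin medians of 0.002 to 0.09 and neuropilin and plexin medians of -0.034 to -0.011. Median centring gave 0.055 for neuropilins and plexins and 0.046 for all members, with a median of 0.031 over all genes. Signs turned for Epha1 with median centring (0.046), and within slide 2 for Efnb2 (-0.012), Epha5 (-0.196) and Unc5c (0.179). Leaving out a pair gave -0.436 to 0.378 for Epha1, -0.012 to 0.37 for Efnb2, -0.196 to 0.675 for Epha5, -0.161 to 0.352 for Efnb3 and -0.312 to 0.179 for Unc5c. Sema3d, at 0.259 in the reported fit, was 0.646 with Agilent processed signals and with the deposited ratios. Ntn1 was -0.854 and -0.851 with the same signals, against -0.547 in the reported fit. Causes of these shifts were not tested. Signal limits Ephb6 most among tested members, with 5 of 6 measurements of each genotype well above background.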
